A study of Caenorhabditis briggsae with 9 samples.

Results

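The 53 genes described here are protein-coding genes of Caenorhabditis briggsae that carry no Cbr- symbol and whose transcript level was lower in every library of the mutant strain gu163 than in every library of the mutant strain gu167 and of the wild-type isolate AF16. They were chosen from the measured levels: each had at least 2 CPM (the count of a gene divided by the column total of its library, times 1000000) in all 6 gu167 and AF16 libraries, and its highest gu163 value was below 0.8 times the lowest of those 6. Of 22922 genes in the count table, 17023 had no Cbr- symbol in the RefSeq annotation of assembly CB4, 5290 of these reached the level minimum and are called eligible below, and 53 met the whole rule (1.002%). The low level in gu163 is therefore the selection itself, and the gu163 values below are a description without a test. RNA came from whole animals at the third larval stage (L3), grown at 20 degrees and synchronized, with 3 libraries per strain that the labels call independent and biological. The gu163 strain carries an allele of Cbr-spr-4, also named Cbr-ivp-1, the gu167 strain an allele of Cbr-htz-1, also named Cbr-ivp-2, and AF16 is the unmutated isolate. The labels do not describe the molecular lesion of gu163 or gu167, and each mutant is represented by 1 allele.

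In C. elegans, spr-4 encodes a zinc-finger protein that was found as a suppressor of presenilin mutations, and htz-1 encodes the histone variant H2A.Z, which replaces H2A in nucleosomes near many promoters. Both proteins act in the nucleus. L3 larvae hold growing muscle, intestine, hypodermis, neurons and a dividing germline, all of which contribute to RNA from whole animals. Genes of Caenorhabditis species often lie close together, and some neighbours are transcribed as one operon and separated by trans-splicing, which is why the genes beside each member are described as well. By the rule no gene of the set has a Cbr- symbol, and annotated products were not examined here, so no function is given to any of them.

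Library totals were 8294524 to 14095189 counts. Scaling factors by the trimmed mean of M-values (TMM), which correct totals for a few highly expressed genes, were 0.746 in AF16 replicate 3, 1.20 in gu167 replicate 3 and between these in the other libraries. By column totals AF16 replicate 3 was the lowest of the 6 gu167 and AF16 libraries in 64.0% of the eligible genes outside the set. Among the members this share was 28.3% (15 of 53). AF16 replicate 2 was the lowest in 34.0% of the members and 8.44% of the others. Cbr-spr-4 itself had 221, 229 and 265 CPM in gu163, 146, 175 and 173 CPM in gu167 and 90.8, 113 and 89.4 CPM in AF16, and Cbr-htz-1 had 56.2, 55.0 and 56.7 CPM in gu163, 58.7, 70.7 and 69.0 CPM in gu167 and 62.5, 57.1 and 58.7 CPM in AF16. The Cbr-spr-4 transcript was thus higher in every gu163 library than in every other library, and with the lesions not described these levels do not check the labels. Markers of muscle, intestine, neurons, hypodermis, pharynx, germline, sperm and adult yolk were found for 36 of 37 listed genes, and none was at 0 counts in a strain. The summed level of the 5 germline markers was 60.8 to 65.2 CPM in gu163, 52.5 to 63.4 CPM in gu167 and 20.1 to 37.6 CPM in AF16, that of the 4 sperm markers was 25.8 to 75.8 CPM in gu163, 10.2 to 16.6 CPM in gu167 and 1.69 to 3.22 CPM in AF16, and that of 3 pharynx markers was 43.3 to 52.0 CPM in gu163, 22.8 to 33.0 CPM in gu167 and 15.7 to 29.8 CPM in AF16. The 5 intestine markers summed to 1098 to 1267 CPM in gu163, 1186 to 1406 CPM in gu167 and 991 to 1245 CPM in AF16, and the 5 body wall muscle markers to 14860.5 to 18573 CPM in gu163, 10881 to 19678 CPM in gu167 and 13436 to 22511 CPM in AF16. The 5 neuron markers summed to 294 to 342 CPM in gu163, 224 to 337 CPM in gu167 and 293 to 359.9 CPM in AF16, the 5 hypodermis and seam markers to 380.5 to 474 CPM in gu163, 287 to 319.8 CPM in gu167 and 237 to 498 CPM in AF16, and the 4 adult yolk markers to 20.1 to 38.0 CPM in gu163, 14.1 to 391.6 CPM in gu167 and 48.3 to 60.9 CPM in AF16. By column totals, not scaled by TMM, the summed germline, sperm and pharynx markers were higher in every gu163 library than in every AF16 library. The order of these sums under TMM scaling was not examined. Singly, the higher level by column totals held for 4 of 5 germline genes, 4 of 4 sperm genes and 1 of 3 pharynx genes (Cbr-myo-2). The summed yolk markers were lower, carried by Cbr-vit-6 alone, since the gu163 and AF16 libraries of the other 3 overlapped; their part in the low levels of the 53 genes was not tested, and in whole animals fewer cells of a type and less RNA per cell cannot be told apart.

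Together the 53 genes took up 0.445, 0.472 and 0.504% of all counts in the gu163 libraries, 0.932, 0.859 and 0.959% in gu167 and 0.851, 0.793 and 0.840% in AF16. Without the 6 genes with the most counts in AF16, the sums were 1754, 1937 and 2042 CPM in gu163, 3896, 3755 and 3933 CPM in gu167 and 4019.9, 3354 and 3501 CPM in AF16. The median member stood at 30.04, 27.96 and 30.2 CPM in the gu163 libraries, 59.2, 56.3 and 58.5 CPM in gu167 and 55.3, 51.6 and 51.8 CPM in AF16. The ratio of the mean gu163 level to the mean AF16 level had a median of 0.506 and ranged from 0.0597 to 0.729, against a median of 1.08 over the 5237 other eligible genes. Relative to gu167 the median ratio was 0.471 in the set and 0.890 in the other eligible genes. The mean gu163 level was under 0.5 times the AF16 mean in 26 members, under 0.5 times the gu167 mean in 30, and under 0.5 times both in 22. In the other eligible genes these counts were 34, 181 and 21 of 5237. The rule uses these same levels, so nothing is read from the differences.

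**Figure D1:**
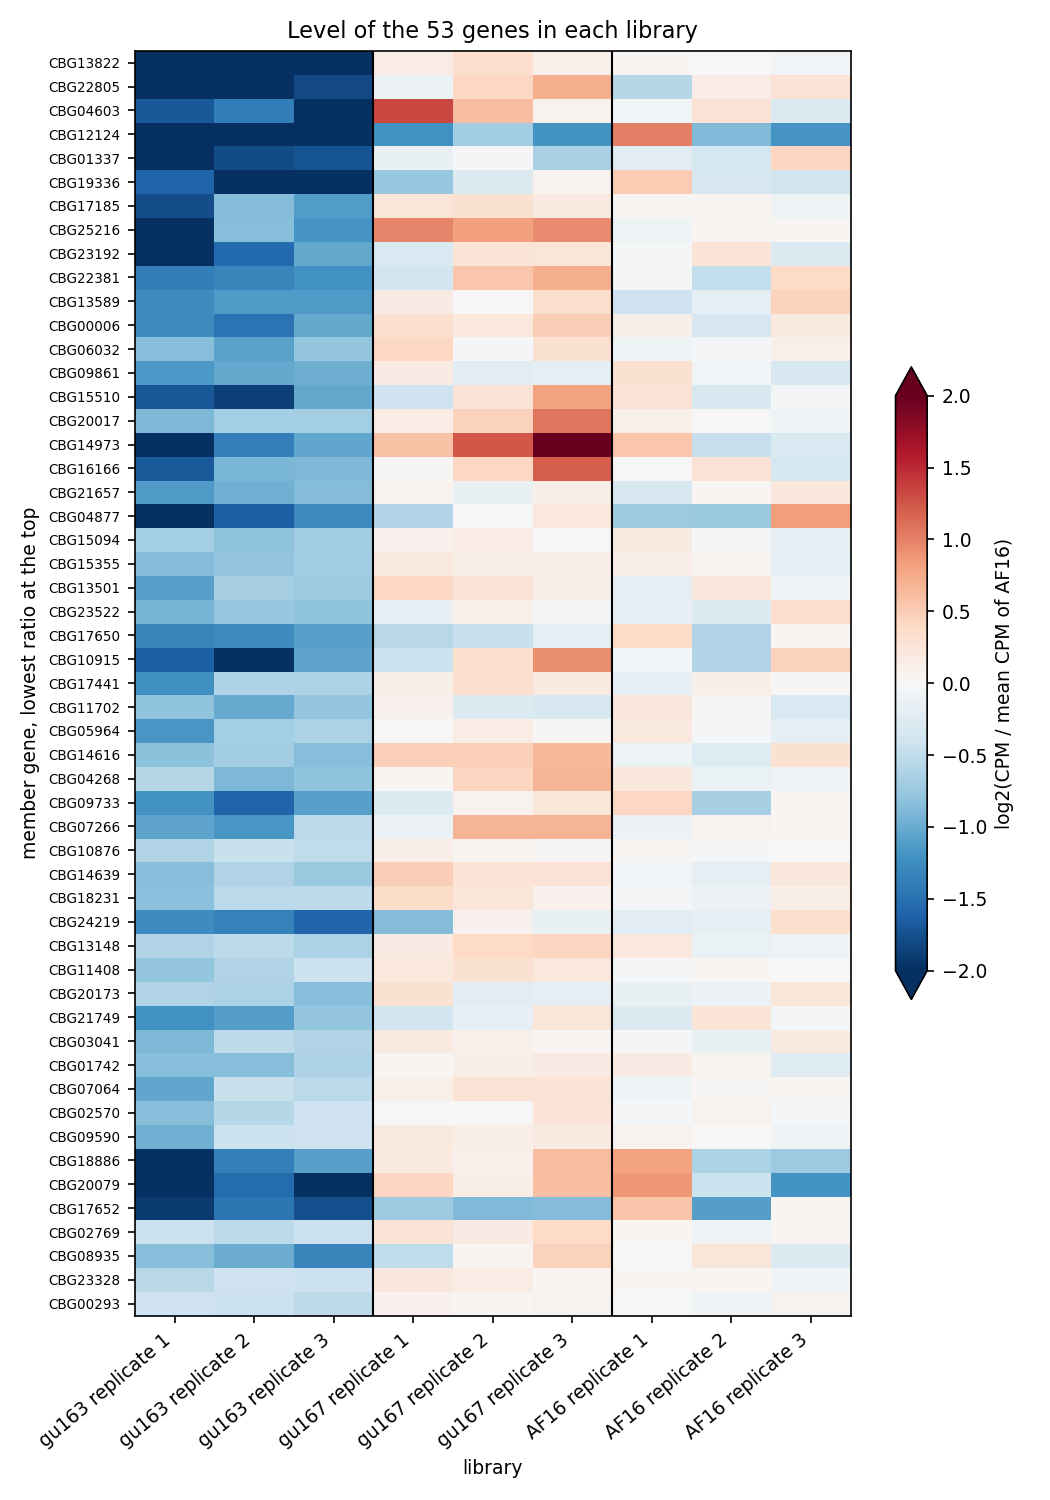
Level of each of the 53 genes (rows, ordered by the ratio of the highest gu163 value to the lowest other value) in the 9 libraries (columns), as log2 of CPM over the mean CPM of AF16, with the colour scale ending at -2 and 2. All gu163 columns are blue by the rule that chose the genes; CBG13822 at the top is at the end of the scale in all 3 gu163 libraries, and AF16 replicate 1 is the reddest AF16 library in the rows of CBG12124, CBG18886 and CBG20079.

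The 8 members with the lowest ratio of the highest gu163 library to the lowest other library ran from 0.0751 to 0.588. CBG13822 was nearly silent in gu163, at 0.344, 0.642 and 0.600 CPM in gu163, 9.80, 11.2 and 9.52 CPM in gu167 and 9.14, 8.87 and 8.54 CPM in AF16. These gu163 levels are 3, 7 and 7 counts, while the other libraries held 79 to 158 counts. The gene had a log2 fold change of -4.20 ± 0.27 (SE) in gu163 over AF16 and -4.13 ± 0.27 over gu167, and its gu167 and AF16 libraries lay within a narrow band. Among the 53 genes it alone had a ratio under 0.4. CBG22805 followed with 15.02, 15.9 and 22.8 CPM in gu163, 74.0, 106 and 132 CPM in gu167 and 53.6, 88.4 and 97.5 CPM in AF16. It was 4.46 times as high in AF16 and 5.82 times as high in gu167 as in gu163 by mean CPM, and it had the highest mean of these 8 genes in both strains. CBG22805 lies beside Cbr-nlp-7, a neuropeptide-like gene, whose own level in gu163 did not pass against AF16 (log2 -0.46 ± 0.40, edgeR adjusted p = 0.533).

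CBG12124 was measured at 6.53, 11.3 and 7.38 CPM in gu163, 23.9, 33.9 and 24.1 CPM in gu167 and 111, 29.9 and 24.2 CPM in AF16. AF16 replicate 1 stood well above the other AF16 libraries, which lay within the gu167 range, and the gu163 libraries lay below all of them. CBG19336 had 9.63, 5.96 and 5.66 CPM in gu163, 17.3, 23.8 and 30.9 CPM in gu167 and 41.8, 23.4 and 22.7 CPM in AF16, again with AF16 replicate 1 highest. The other 4 members of this group were below 10 CPM in every library. CBG04603 was at 1.03, 1.28 and 0.600 CPM in gu163, 8.43, 5.11 and 3.496 CPM in gu167 and 3.22, 4.06 and 2.72 CPM in AF16, CBG01337 at 1.38, 1.65 and 1.72 CPM in gu163, 5.14, 5.605 and 3.62 CPM in gu167 and 4.88, 4.48 and 7.70 CPM in AF16 and CBG17185 at 1.03, 1.93 and 1.63 CPM in gu163, 4.18, 4.33 and 3.98 CPM in gu167 and 3.64, 3.65 and 3.29 CPM in AF16. Their gu163 libraries held 7 to 21 counts each, so these levels rest on few reads. CBG25216 had 0.688, 2.57 and 2.06 CPM in gu163, 9.16, 8.23 and 8.92 CPM in gu167 and 4.36, 4.81 and 4.79 CPM in AF16; its gu167 libraries were all above its AF16 libraries; in CBG17185 this order of libraries held with a smaller distance.

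**Figure D2:**
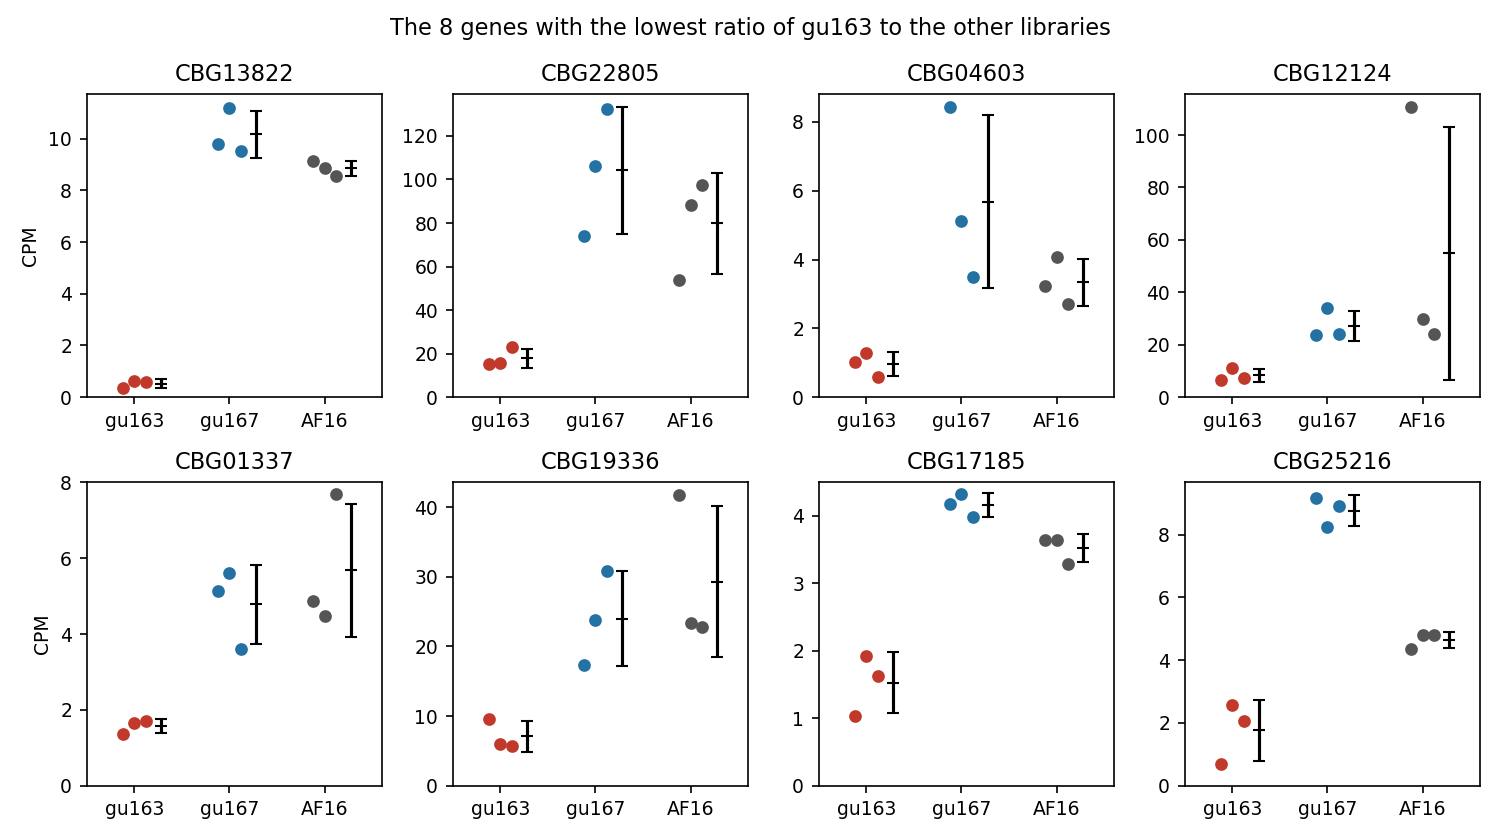
CPM (linear axes from 0) of the 8 genes with the lowest ratio, in gu163, gu167 and AF16; points are the 3 libraries of each strain and the black bar is the mean ± SD. In every panel the gu163 points lie below all other points, and for CBG12124 and CBG19336 1 AF16 library lies above the rest.

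The 6 members with the highest mean CPM in AF16 had mean gu163 levels of 0.506 to 0.726 times the AF16 mean. CBG06032 was measured at 697, 599 and 732 CPM in gu163, 1666, 1213 and 1545 CPM in gu167 and 1174, 1232 and 1349 CPM in AF16, and CBG21657 at 491, 549 and 588 CPM in gu163, 1121, 969.6 and 1158 CPM in gu167 and 858, 1105 and 1255 CPM in AF16. For both, the gu163 mean was close to 0.5 times the AF16 mean (ratios 0.540 and 0.506), with log2 fold changes of -1.07 ± 0.27 and -1.19 ± 0.27 in gu163 over AF16 and -1.02 ± 0.27 and -0.90 ± 0.27 over gu167. CBG02769 averaged 675 ± 22.7 CPM in gu163, 1128 ± 90.6 CPM in gu167 and 929 ± 49.1 CPM in AF16 (SD, n = 3 each). It lies beside Cbr-cyd-1, which encodes a D-type cyclin and was measured at 2.64, 6.23 and 5.23 CPM in gu163, 6.83, 7.31 and 8.56 CPM in gu167 and 5.82, 6.30 and 6.85 CPM in AF16. CBG13148 averaged 374 ± 14.5 CPM in gu163, 707 ± 68.2 CPM in gu167 and 560.1 ± 76.5 CPM in AF16, CBG02570 285 ± 43.2 CPM in gu163, 458 ± 52.2 CPM in gu167 and 432 ± 19.6 CPM in AF16, and CBG09590 272 ± 54.5 CPM in gu163, 459 ± 11.8 CPM in gu167 and 408 ± 20.8 CPM in AF16. The lowest library of CBG02570 and of CBG09590 was gu163 replicate 1. Per kilobase of gene span, introns included, the mean AF16 level was 997 CPM for CBG06032, 831 for CBG13148, 734 for CBG21657, 405 for CBG02769, 181 for CBG09590 and 73.3 for CBG02570.

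A further 5 members of intermediate level were named after their values were seen. CBG00006, which lies beside the fibrillin gene Cbr-fbn-1, had 68.9, 59.5 and 81.0 CPM in gu163, 207, 192 and 231 CPM in gu167 and 179, 130.3 and 187 CPM in AF16. CBG09861, beside the myosin light chain gene Cbr-mlc-4, had 168, 184 and 191 CPM in gu163, 420.3, 322 and 331 CPM in gu167 and 461, 358 and 300.1 CPM in AF16. Both had a log2 fold change below -1 against AF16 (-1.43 ± 0.24 and -1.19 ± 0.20), and every gu167 library of CBG00006 was above every AF16 library, while in CBG09861 the gu167 and AF16 libraries overlapped. CBG15355 was measured at 101, 106 and 114 CPM in gu163, 211, 199 and 203 CPM in gu167 and 202, 189 and 161 CPM in AF16, CBG13501, beside the sugar transporter gene Cbr-swt-1, at 76.0, 102 and 97.4 CPM in gu163, 214, 192 and 175 CPM in gu167 and 143, 189 and 152 CPM in AF16, and CBG14616 at 42.3, 45.7 and 41.1 CPM in gu163, 103, 104 and 116 CPM in gu167 and 69.2, 61.9 and 91.9 CPM in AF16. The gu163 libraries of CBG15355 differed from each other by less than their distance to the lowest other library. The same held for CBG14616, with gu167 above AF16 in every library. Of the 53 members, 4 had a ratio of 0.4 to 0.5, 3 of 0.5 to 0.6, 13 of 0.6 to 0.7 and 32 of 0.7 to 0.8.

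Single libraries shaped some members. In CBG12124, CBG14973, CBG18886, CBG19336 and CBG20079, AF16 replicate 1 was more than 1.5 times each other AF16 library, a share of 9.43% that stood beside 7.45% of the other eligible genes. CBG20079 was at 6.53, 13.4 and 9.09 CPM in gu163, 52.4, 42.5 and 58.8 CPM in gu167 and 71.0, 28.9 and 17.0 CPM in AF16, and CBG18886 at 5.503, 10.8 and 13.2 CPM in gu163, 32.0, 30.01 and 42.7 CPM in gu167 and 48.9, 18.0 and 16.8 CPM in AF16. The lowest AF16 library, replicate 3 in both genes, was near the highest gu163 library, at a ratio of 0.788 in CBG20079 and 0.786 in CBG18886, and the mean gu163 level was 0.248 and 0.353 times the AF16 mean. In CBG01337, CBG04877 and CBG13589 it was AF16 replicate 3 that exceeded the others by that factor (5.66%, beside 2.33% of the other eligible genes). In CBG14973, CBG16166 and CBG20017 gu167 replicate 3 exceeded the other gu167 libraries by it (5.66%, beside 3.40%). The same held for gu167 replicate 1 in CBG04603 (1.89%, beside 0.840%). Within gu163, replicate 1 was the lowest library in 35 of 53 members (66.0%) and in 70.6% of the other eligible genes.

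At the threshold the members shaded into genes that were left out. The 3 just inside a ratio of 0.8 were CBG08935, CBG23328 and CBG00293, at 0.790, 0.792 and 0.794, and the 3 just outside were CBG03683, CBG12733 and CBG09061, at 0.804, 0.807 and 0.811. CBG00293, inside, had 39.0, 38.8 and 36.1 CPM in gu163, 55.2, 53.5 and 54.7 CPM in gu167 and 52.1, 49.1 and 54.9 CPM in AF16. CBG03683, outside, had 33.5, 41.6 and 44.4 CPM in gu163, 74.9, 68.6 and 70.9 CPM in gu167 and 55.3, 56.6 and 64.6 CPM in AF16, a wider gap of the strain means than that of CBG00293. The set depended strongly on how libraries were scaled. With TMM-scaled totals, 42 of the 53 kept a ratio under 0.8 and 142 unnamed genes met the rule; the 11 others lay at 0.802 to 1.01, with CBG20173 at the upper end. They included CBG02769, CBG02570, CBG11702, CBG08935, CBG23328 and CBG00293. Without AF16 replicate 3 the rule gave 168 genes, and without gu163 replicate 2 or 3 it gave 108 and 99.

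The rule was also applied with 1 gu163 library left out. Chosen without gu163 replicate 1, 58 genes met the rule, and in replicate 1 57 of them (98.3%) were below the lowest gu167 or AF16 library, against 25.9% of all eligible genes. Chosen without replicate 2 the numbers were 84 of 108 (77.8%), against 10.9%, and without replicate 3 they were 82 of 99 (82.8%), against 10.4%. The median level in the left-out library relative to the lowest gu167 or AF16 library was 0.570, 0.809 and 0.781 for replicates 1, 2 and 3, against 1.26, 1.596 and 1.55 over all eligible genes. The gu167 and AF16 libraries that enter these ratios were the same as those of the choice, so the shares are a description. The genes under the full margin of 0.8 in the left-out library are the 53 members by construction.

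A fit of all 12507 genes that passed the filter on low counts (edgeR's quasi-likelihood test, TMM, all 9 libraries) held all 53 members. In gu163 against AF16 it called 48 of them lower at an adjusted p under 0.05, beside 2.94% of all genes tested, and in gu163 against gu167 it called 38 lower, beside 5.13%. These are the contrasts that chose the genes, so nothing is read from the counts. The median log2 fold change of the members was -1.19 over AF16, from -4.20 to -0.63, and -0.997 over gu167, from -4.13 to -0.41, while over all genes tested the medians were -0.01 and -0.02. The 2 comparisons share the gu163 libraries.

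The comparison of gu167 with AF16 does not set gu163 against another strain and asks whether these genes also differ between the other 2 strains. Its fit held all 9 libraries, so the gu163 libraries entered the filter, the scaling and the shared estimate of the spread. The rule bounds this comparison only in part: a gene lowered in gu167 could be chosen if gu163 was lower still. The rule uses the lowest gu167 or AF16 library, so this comparison is not independent of the choice of members. By column totals AF16 replicate 3 was the highest AF16 library in 35.8% of the members and 14.0% of the other eligible genes. It was the lowest AF16 library in 37.7% and 72.3%. The part of the choice in the calls and directions of this comparison was not tested. None of the 53 members was called by edgeR in gu167 against AF16 (0 of 53, beside 2.09% of all genes tested). At an unadjusted p under 0.05, 1 member was higher, beside 8.12% of all genes tested, and 3 were lower, beside 6.87%. In the same comparison limma-voom called 0 members, beside 1.89% of all genes, and DESeq2 called 1 higher and 1 lower, beside 5.09% in either direction. The median log2 fold change was -0.10, with quartiles of -0.26 and 0.03, against a median of -0.02 over all genes tested. The direction depended on the scaling: by column totals the gu167 mean was above the AF16 mean in 41 of 53 members (77.4%) and in 77.5% of the other eligible genes, whereas with TMM 16 of 53 (30.2%) had a log2 fold change above 0, against 48.0% of all genes tested. Every gu167 library exceeded every AF16 library by column totals in 13 members, beside 19.3% of the eligible genes, and lay below every AF16 library in 0 members, beside 1.76%.

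The 4 members with an unadjusted p under 0.05, named after their values were seen, were CBG14973, CBG17652, CBG17650 and CBG12124. CBG14973 was measured at 7.57, 15.3 and 19.3 CPM in gu163, 59.2, 93.9 and 164 CPM in gu167 and 58.1, 28.6 and 31.9 CPM in AF16, with gu167 replicate 3 highest and AF16 replicate 1 just below the lowest gu167 library (log2 1.13 ± 0.34, edgeR adjusted p = 0.150). It was higher in gu167 by DESeq2 (adjusted p = 0.0454), and its adjusted p ran up to 0.558 over 13 alternatives. CBG17652 had 57.4, 79.4 and 64.3 CPM in gu163, 131, 117 and 118.5 CPM in gu167 and 322, 101 and 226 CPM in AF16, and its AF16 replicate 2 lay below every gu167 library (log2 -1.09 ± 0.34, edgeR adjusted p = 0.159). Without AF16 replicate 2 its adjusted p was 0.00442, and DESeq2 called it lower (0.0490), with a range up to 0.602. CBG17650 had 42.4, 44.6 and 50.3 CPM in gu163, 72.8, 78.3 and 94.9 CPM in gu167 and 141, 70.4 and 110.3 CPM in AF16 (log2 -0.68 ± 0.23, edgeR adjusted p = 0.194), with an adjusted p of 0.0127 without AF16 replicate 2 and up to 0.508 otherwise. CBG12124 did not pass in any of the 13 alternatives (log2 -1.19 ± 0.43, edgeR adjusted p = 0.223), and without AF16 replicate 1 its log2 fold change was -0.35. The other 49 members had log2 fold changes within -0.58 to 0.63.

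**Figure D3:**
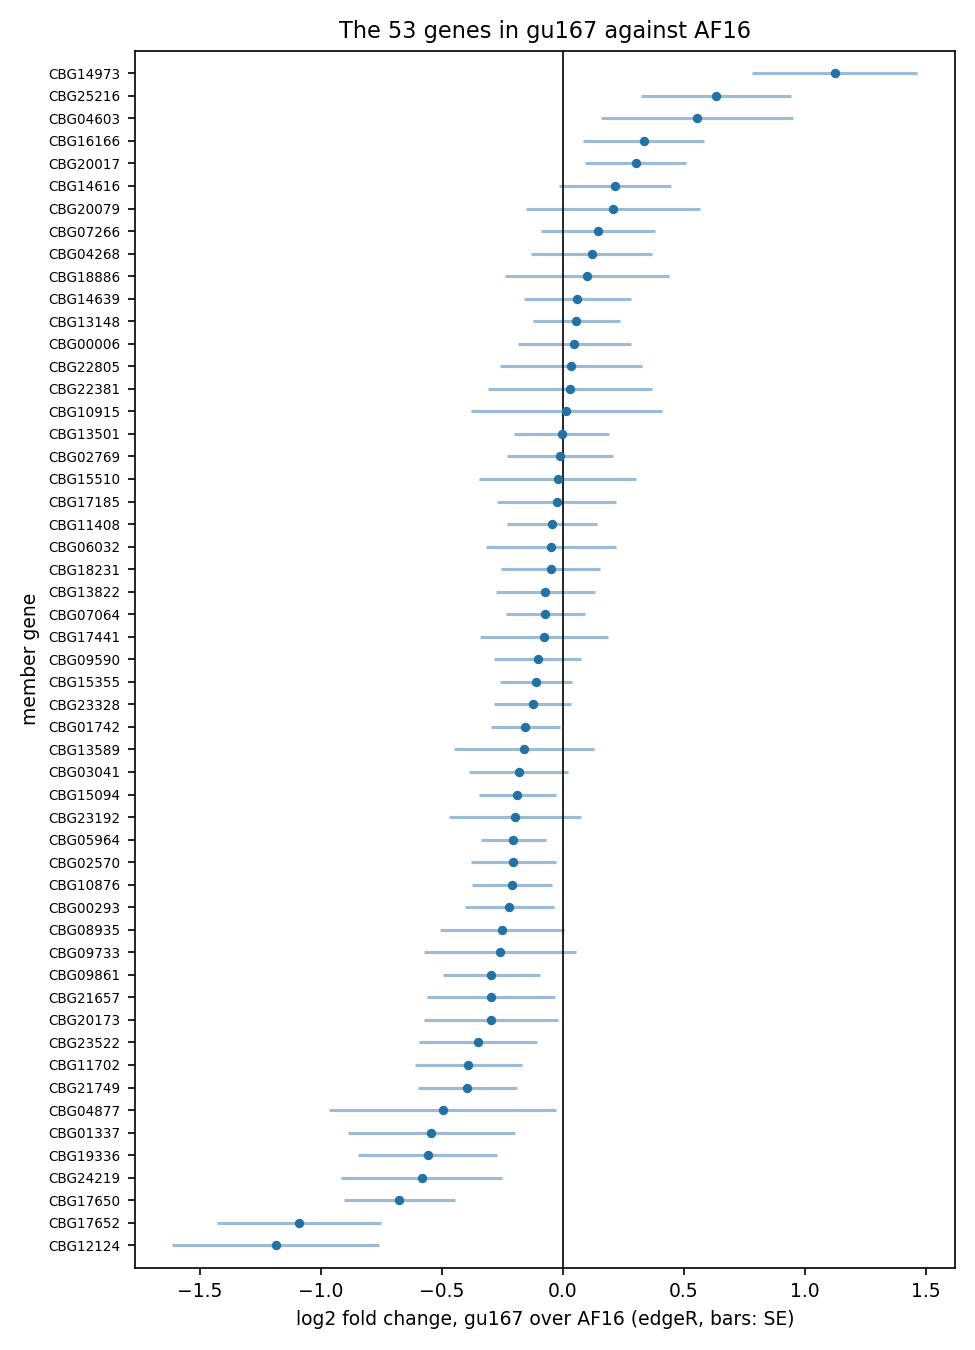
Log2 fold change of each of the 53 genes in gu167 over AF16 (edgeR, TMM; bars are ± 1 SE; 3 libraries per strain), ordered by value. CBG14973 at the top reaches 1.13 and CBG12124 and CBG17652 at the bottom -1.19 and -1.09; without AF16 replicate 1 the value of CBG12124 was -0.35, and no gene passed the adjusted threshold.

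By median the members had shorter gene spans than the other eligible genes and higher wild-type levels per length. Their span in assembly CB4, from first to last annotated base and introns included, had a median of 1549 bases with quartiles of 1054 and 2603, against 2282 bases and quartiles of 1277 and 4120 in the other eligible genes. The shortest were CBG25216 (435 bases) and CBG08935 (452 bases), and the longest were CBG20079 (21527 bases) and CBG07266 (12752 bases). CBG07266 was at 8.94, 8.25 and 12.8 CPM in gu163, 17.0, 29.7 and 29.7 CPM in gu167 and 17.0, 19.5 and 18.96 CPM in AF16. Spans under 1000 bases were found in 12 of 53 members (22.6%) and 17.1% of the others. The mean AF16 level per kilobase of span had a median of 37.5 CPM in the set and 8.77 CPM in the other eligible genes. In gu163 these medians were 13.4 and 9.88 CPM, and in gu167 41.4 and 10.6 CPM. A mean AF16 level of at least 100 CPM was reached by 17 members (32.1%) and 10.9% of the others, while 15 members (28.3%) and 28.6% of the others were under 10 CPM. The spread between AF16 libraries was smaller in the set, with a median coefficient of variation of 17.9% against 24.4%; the rule uses the lowest AF16 library, so this spread is not independent of it. The rule also uses the AF16 and gu167 levels themselves, so the differences in level are not independent of it either. None of these differences was tested.

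**Figure D4:**
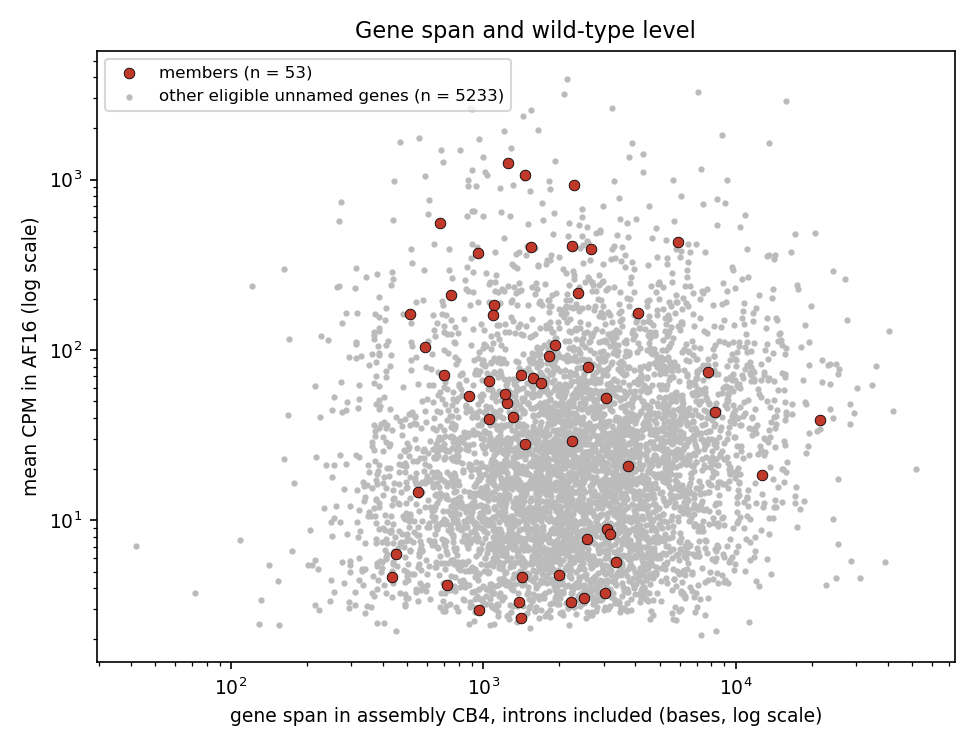
Gene span in assembly CB4 (x axis, bases, log scale, introns included) against mean CPM in AF16 (y axis, log scale) for the 53 members (red) and the 5233 other eligible unnamed genes with a span (grey). The members run from 435 to 21527 bases, with 17 of 53 at or above 100 CPM.

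The members lay on all 6 chromosomes of the assembly, with 5 on I, 7 on II, 5 on III, 13 on IV, 12 on V and 11 on X. The shares of members and of the other eligible genes were 9.43% and 16.7% on I, 13.2% and 15.96% on II, 9.43% and 15.6% on III, 24.5% and 16.4% on IV, 22.6% and 18.3% on V, and 20.8% and 15.5% on X, with no test of the difference. No member was directly next to another in the annotated gene order. The span of 4 members (7.55%) overlapped another annotated gene, beside 6.43% of the other placed eligible genes. CBG00006 overlaps CBG28380, CBG21749 overlaps CBG28191, CBG20079 overlaps CBG20080, CBG20081 and CBG20082, and CBG00293 overlaps Cbr-tag-173. Whether the counting used strand is not stated in the labels. The overlap was taken over whole spans, introns included, and whether these genes share reads was not examined.

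The genes beside the members were not chosen by level and could be tested in gu163 against AF16. The 53 members had 105 distinct immediate neighbours, of which 63 passed the filter on low counts. Of these, 5 were called lower in gu163 (7.94%, beside 2.94% of all genes tested) and 1 higher (1.59%, beside 6.36%). Their median log2 fold change was -0.14, and 42 of 63 (66.7%) were below 0, against 51.2% of all genes tested. Leaving out gu163 replicate 3 reduced the 5 to 1, leaving out gu163 replicate 1 to 2 and leaving out AF16 replicate 1 to 3, while DESeq2 called 9.

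Cbr-nol-1, a gene of a nucleolar RNA methyltransferase family, lies beside CBG07064. It was measured at 102, 129.7 and 146 CPM in gu163, 244, 236 and 238 CPM in gu167 and 227, 215 and 211 CPM in AF16, and fell in gu163 (log2 -0.98 ± 0.17, edgeR adjusted p = 0.00581), a call kept in all 13 alternatives. CBG07064 had 33.2, 50.1 and 47.4 CPM in gu163, 73.2, 83.9 and 83.1 CPM in gu167 and 64.8, 69.6 and 71.1 CPM in AF16. Cbr-hsp-60, the gene of the mitochondrial chaperonin, lies beside CBG11702. It had 713, 806 and 889 CPM in gu163, 1769, 1263 and 1406 CPM in gu167 and 1763, 1584 and 1192 CPM in AF16 and fell in gu163 (log2 -1.07 ± 0.24, edgeR adjusted p = 0.0189), with log2 values of -1.11 to -1.01 in the fits without 1 library; the call was lost without AF16 replicate 2 or any 1 gu163 library (adjusted p up to 0.0736). CBG11702 had 229, 199 and 235 CPM in gu163, 426, 331 and 321 CPM in gu167 and 470.3, 407 and 324 CPM in AF16. It was lowest in gu163 by the rule, and with TMM-scaled totals its ratio was 0.970. Cbr-hsp-60 was also lowest in gu163, and replicate 1 was the highest gu167 and AF16 library in both genes. Of 34 neighbours with a symbol, 29 of them tested, only Cbr-nol-1 and Cbr-hsp-60 would have met the level criteria of the rule themselves. Among all genes with a symbol that reached the level minimum this share was 0.964%. How many of the 34 reached that minimum was not counted.

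The other neighbours called lower were CBG15800 beside CBG15355 (log2 -0.75 ± 0.14, edgeR adjusted p = 0.00900, lost without gu163 replicate 3 at 0.0520), Cbr-hoe-1 beside CBG01742 (log2 -0.65 ± 0.17, edgeR adjusted p = 0.0427) and CBG12123 beside CBG12124 (log2 -2.01 ± 0.47, edgeR adjusted p = 0.0257). In C. elegans, hoe-1 encodes a tRNA-processing endonuclease. With 1 library left out, Cbr-hoe-1 kept its call in the absence of AF16 replicate 3 and lost it in the other 5 cases (edgeR adjusted p at most 0.113). It also lost the call with only the 2 strains compared (edgeR adjusted p = 0.115). CBG12123 was scarce, at 0.229, 0.367 and 0.429 CPM in gu163, 0.883, 1.99 and 0.964 CPM in gu167 and 1.77, 1.08 and 1.03 CPM in AF16, and it lost its call when AF16 replicate 1 or any 1 gu163 library was left out (edgeR adjusted p at most 0.0842). The neighbour called higher was the cytochrome P450 gene Cbr-cyp-29A3 beside CBG15510. It had 26.7, 18.0 and 24.0 CPM in gu163, 8.67, 12.3 and 11.1 CPM in gu167 and 11.4, 7.38 and 7.41 CPM in AF16 and rose in gu163 (log2 1.26 ± 0.25, edgeR adjusted p = 0.0104) in all 13 alternatives, whereas CBG15510 had 1.03, 0.917 and 1.63 CPM in gu163, 2.49, 3.97 and 5.79 CPM in gu167 and 4.05, 2.65 and 3.29 CPM in AF16. Neighbours that did not pass included the exosome gene Cbr-exos-1 beside CBG18231 (log2 -0.45 ± 0.17, edgeR adjusted p = 0.133), Cbr-osm-6, an intraflagellar transport gene, beside CBG23328 (log2 -0.07 ± 0.52, edgeR adjusted p = 0.952) and the metal transporter gene Cbr-smf-1 beside CBG10876 (log2 0.15 ± 0.17, edgeR adjusted p = 0.644).

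Members came close to each other in the gene order in 2 places, with 2 genes and 1 gene between them, described here after their values were seen. How often eligible genes lie this close was not counted, so nothing is read from the number of such places. On chromosome I, CBG14973 and CBG25216 are separated by Cbr-sulp-6, of a sulfate permease family, and CBG14975. The genes between them were barely detected, with 3, 13 and 5 counts of Cbr-sulp-6 over the gu163, gu167 and AF16 libraries. Both members had the same order of strain means, gu163 lowest and gu167 highest, with log2 fold changes of -1.66 ± 0.36 and -1.58 ± 0.35 in gu163 over AF16 and 1.13 ± 0.34 and 0.63 ± 0.31 in gu167 over AF16. The rule makes gu163 lowest in every member, and by column totals the gu167 mean was above the AF16 mean in 77.4% of members. This order is therefore not particular to the pair, and neither gene was called in gu167 against AF16 (edgeR adjusted p = 0.150 and 0.372). Of the tested flanking genes, Cbr-trx-4, a thioredoxin gene, was at 0.05 ± 0.16 and Cbr-rom-5, a rhomboid protease family gene, at -0.18 ± 0.17 in gu163 over AF16 (edgeR adjusted p = 0.876 and 0.576).

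On chromosome IV, CBG17652 and CBG17650 are separated by CBG17651. CBG17651 had 77.0, 91.4 and 87.5 CPM in gu163, 82.5, 107 and 105 CPM in gu167 and 148, 80.2 and 145 CPM in AF16, and CBG17653 on the other side of CBG17652 had 10.1, 14.8 and 14.7 CPM in gu163, 12.6, 18.6 and 20.6 CPM in gu167 and 37.8, 13.6 and 21.6 CPM in AF16. Neither passed in gu163 against AF16 (log2 -0.74 ± 0.25 and -1.04 ± 0.30, edgeR adjusted p = 0.0955 and 0.0545). Without AF16 replicate 2 both were called lower (edgeR adjusted p = 0.00931 and 0.00508). CBG17653 was also called lower by DESeq2 (adjusted p = 0.0143) and with no filter on low counts. With any other AF16 or gu163 library left out, neither gene was called (edgeR adjusted p up to 0.237 and 0.154). In gu163 over gu167 their log2 fold changes were -0.09 and -0.27 (edgeR adjusted p = 0.863 and 0.594). In gu167 over AF16 they were -0.66 and -0.77, and neither gene was called. Lower values than in AF16 were thus not particular to gu163 in CBG17651 and CBG17653. In all 4 of these adjacent genes AF16 replicate 2 was the lowest AF16 library. The nearest gene with a symbol in this stretch, Cbr-grl-21, of the hedgehog-related ground-like family, had 30.04, 30.9 and 55.7 CPM in gu163, 79.0, 113 and 135 CPM in gu167 and 77.9, 63.2 and 147 CPM in AF16 and fell in gu163 (log2 -1.56 ± 0.40, edgeR adjusted p = 0.0343). That call was lost in 6 of 13 alternatives, among them those without gu163 replicate 1, gu163 replicate 2 or AF16 replicate 3, and without AF16 replicate 3 its log2 fold change was -0.88 (edgeR adjusted p = 0.0529). Near-identical copies among such neighbours could share reads, which was not examined.

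**Figure D5:**
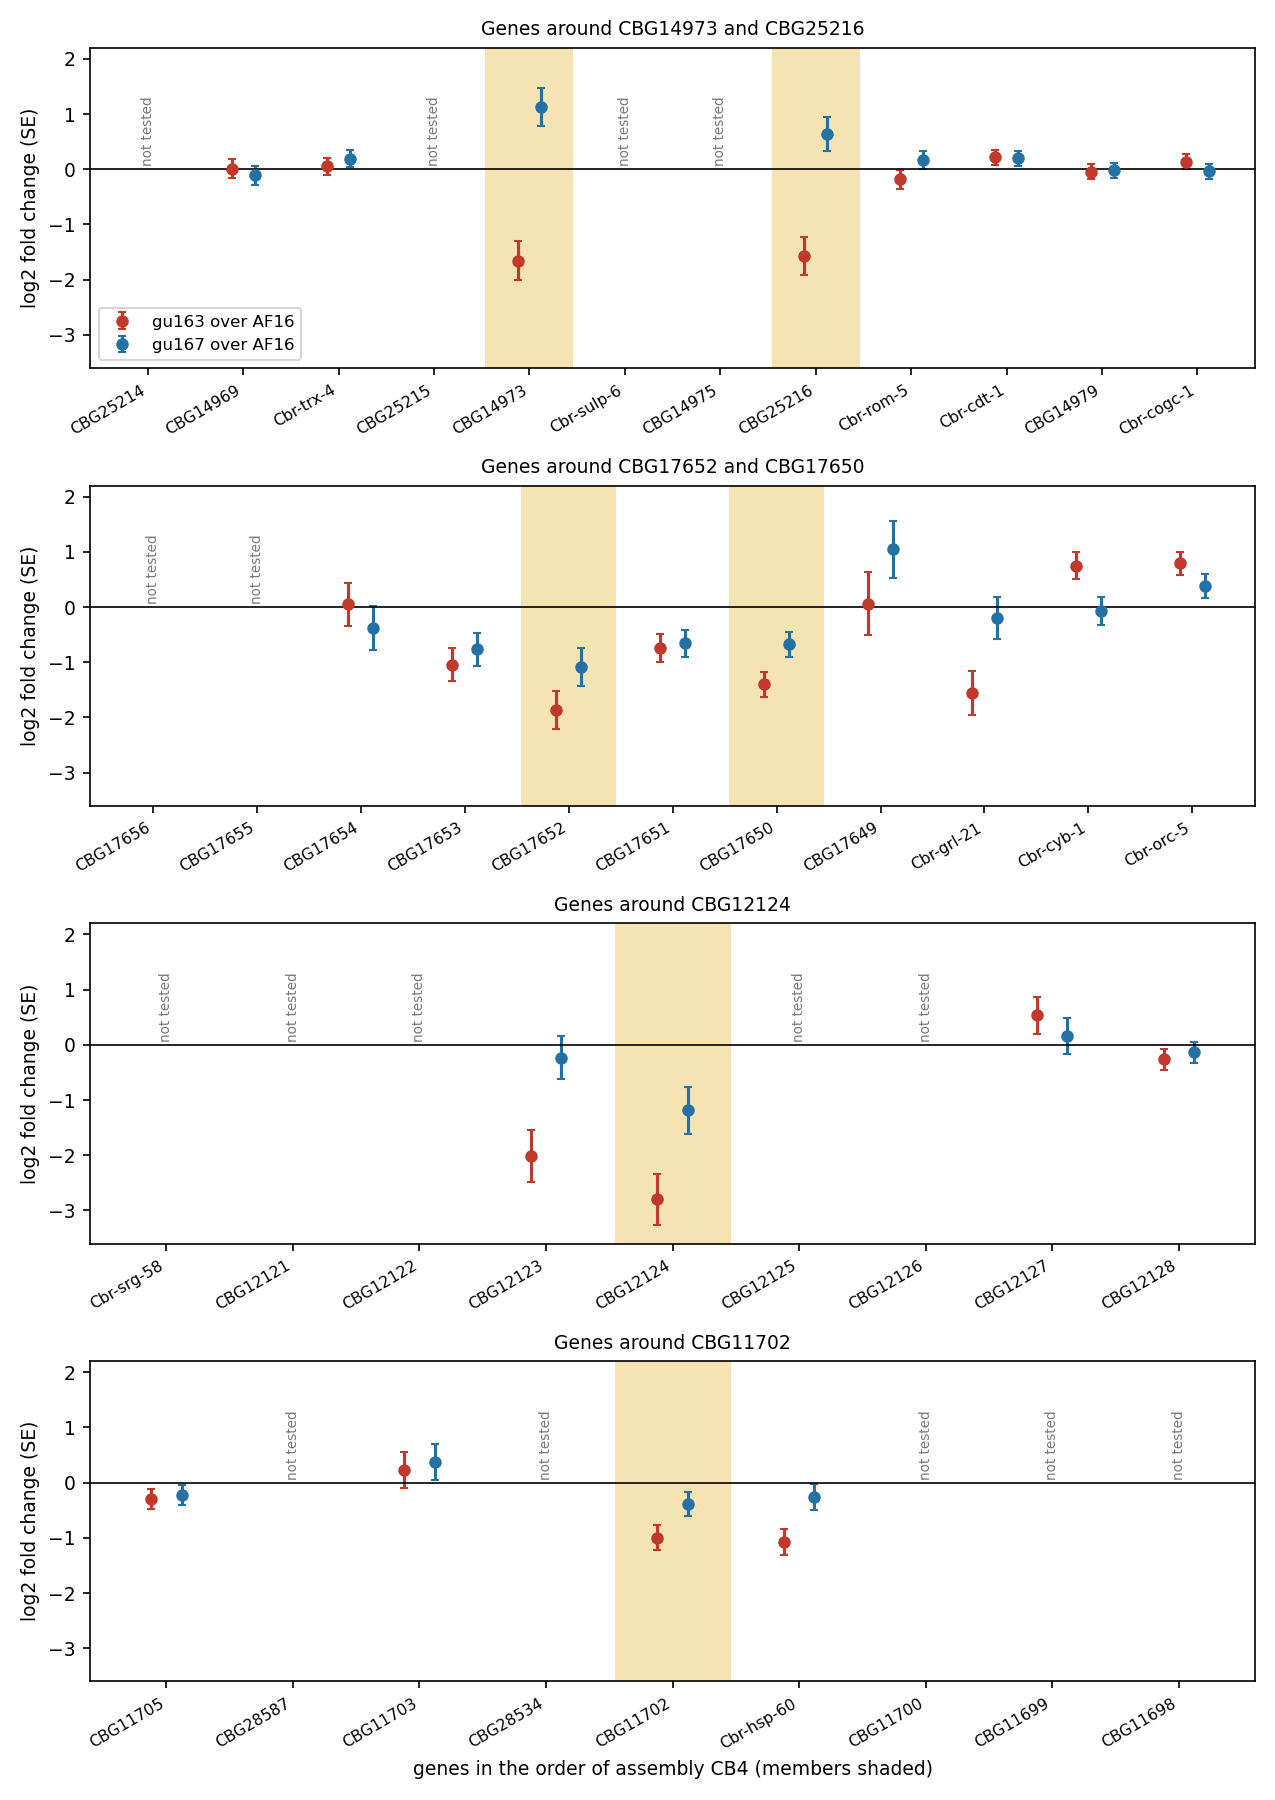
Log2 fold change (edgeR; bars are ± 1 SE; 3 libraries per strain) of gu163 over AF16 (red) and gu167 over AF16 (blue) for genes in the order of assembly CB4 around CBG14973 and CBG25216, CBG17652 and CBG17650, CBG12124, and CBG11702 with Cbr-hsp-60; members are shaded and genes under the count filter are marked as not tested. Members were chosen for a low level in gu163, so their red points lie below 0 by the rule. In the top panel the 2 members lie above 0 in gu167, where neither was called, and the tested flanking genes lie near 0. In the bottom panel CBG11702 and Cbr-hsp-60 lie near -1 in gu163.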

How the data were processed

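The authors deposited raw counts for each gene in each of 9 libraries, and their single-library files held equal values in 9 of 9 cases. Per the labels' protocols the total RNA was rRNA-depleted and read from one end. Trim Galore, FastQC, STAR and DESeq appear in the submitters' processing notes, with no version. Which build, annotation, counter and strand setting were used is not stated there. Symbols, gene spans, chromosomes and neighbours came from the RefSeq table of assembly CB4, matched by locus tag for 22727 of 22922 identifiers; of genes next to each other there, 98.3% were also consecutive in the count table. CPM used column totals, as the rule for members states.

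The fit of all 3 strains, with 3 libraries each, used edgeR 4.0.16 under R 4.3.3 (filterByExpr at 10 counts, TMM, quasi-likelihood F tests with robust dispersions), with Benjamini-Hochberg adjustment over all 12507 genes tested and a threshold of 0.05. Each SE is the log2 fold change divided by the root of its F. Alternatives were DESeq2 1.42.0, limma-voom (limma 3.58.1), RLE scaling, no filter, only the 2 strains compared, the replicate number as a block and leaving out libraries. The steps were tested on simulated counts. Depending on the library, 3 counts equal 0.213 to 0.362 CPM.

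The members, lists and tests were chosen with earlier results of these data known. The rule for named genes took the 8 lowest ratios, the 6 highest AF16 levels, the 3 genes on each side of the ratio threshold, members called in gu167 against AF16, runs of neighbouring members and the 2 shortest and 2 longest genes, here by span. Protein and promoter sequences were not analysed here; other genes named were chosen after their values were seen.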

Additional observations from a re-analysis of the deposited data

How the results depend on the processing

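The number of members, 53, was 142 with TMM-scaled and 141 with RLE-scaled totals (42 shared each), 21 at a ratio of 0.7, 138 at 0.9, and 55 to 168 without 1 library, which can only add genes. Without AF16 replicate 3 and gu167 replicate 3 together it was 175. A minimum of 1 or 5 CPM gave 63 and 41. Members called in gu167 against AF16 were 0, but 2 by DESeq2 and 0 to 2 without 1 library (2 without AF16 replicate 2). All genes called in that comparison were 262, 636 by DESeq2, 169 with only the 2 strains compared, and 152 to 367 without 1 library. Calls in gu163 against AF16 were 1163, 1617 by DESeq2, 759 with only the 2 strains compared and 654 to 1078 without 1 library. In gu163 against gu167 they were 1683, 2288 by DESeq2, 2290 with only the 2 strains compared and 710 to 1264 without 1 library. Neighbours called lower in gu163 were 5, 9 by DESeq2 and 1 to 5 without 1 library; those called higher were 1, 1 to 3 without 1 library, and 3 without AF16 replicate 3 and gu167 replicate 3. No member was next to another in the annotated order, and 2 were when only genes of at least 2 CPM in any library were kept, an alternative added after seeing the data, as were those for neighbours. The cause of these changes was not tested. Of 19 single genes run under the alternatives, Cbr-osm-6 and Cbr-trx-4, neither called, changed sign. With 1 library left out, the log2 fold change of Cbr-osm-6 ran from -0.33 (AF16 replicate 3 out) to 0.40 (AF16 replicate 1 out), and that of Cbr-trx-4 from -0.0433 (AF16 replicate 3 out) to 0.19 (AF16 replicate 2 out). Cbr-trx-4 was at -0.0432 with both libraries numbered 3 of AF16 and gu167 left out.

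With the replicate number as a block, calls in gu167 against AF16 were 173, neighbours called lower were 3, members called stayed at 0, and Cbr-hoe-1 and CBG12123 lost their calls (edgeR adjusted p = 0.0893 and 0.0588). Same-numbered libraries had correlations of their deviations from -0.29 to 0.25, so the numbers were not taken as pairs. The same-strand neighbour order was not run.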

Other observations

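Genes with a Cbr- symbol met the same level criteria about as often as unnamed ones, in 41 of 4251 cases (0.964%) against 1.002%. With the strains exchanged in the rule and the margin of 0.8 kept, 6 of 5254 unnamed genes (0.114%) were lower in every gu167 library than in all gu163 and AF16 libraries, and 121 of 5589 (2.16%) were lower in every AF16 library than in all gu163 and gu167 libraries. These counts use column totals, under which AF16 replicate 3 is low for most genes.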
